A study of Saccharomyces cerevisiae with 2 samples.

Results

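The genes of upper glycolysis encode the enzymes that carry glucose from its phosphorylation to triose phosphate. They were chosen by function, as a fixed list of 8 systematic names in the order of the pathway, HXK1 (YFR053C), HXK2 (YGL253W), GLK1 (YCL040W), PGI1 (YBR196C), PFK1 (YGR240C), PFK2 (YMR205C), FBA1 (YKL060C) and TPI1 (YDR050C). The choice was made with earlier results of these data known. All 8 had a value on both arrays, among 6207 features, of which 2738 did. The cells were budding yeast, Saccharomyces cerevisiae, carrying a mid2 mutation in BY4741, which is a haploid strain used in laboratories. Mid2 is a plasma membrane sensor of cell wall stress. Cells were grown in rich medium (YEPD) at 24 °C, and a culture was split into a part left untreated and a part given 30 µg/ml Congo Red, which attaches to wall polysaccharides and weakens the wall, with collection at 4 h. Treated and untreated RNA shared each array, and 2 arrays with swapped dyes form the single group: the RNA of treated cells was labelled with Cy3 on array 1 and with Cy5 on array 2. Both parts carried the mid2 mutation, and wild-type cells were not analysed here, so the values are not tied to the loss of Mid2. Whether the arrays come from 1 culture or 2 is not in the labels, so the spread between them may be technical.

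Yeast phosphorylates glucose with the hexokinases Hxk1 and Hxk2 and the glucokinase Glk1. Phosphoglucose isomerase turns glucose 6-phosphate into fructose 6-phosphate, phosphofructokinase commits it to glycolysis, and aldolase splits the bisphosphate into the triose phosphates that triosephosphate isomerase interconverts. Glucose 6-phosphate is also drawn off to trehalose, glycogen, the pentose phosphate pathway and the nucleotide sugar of glucan. Fructose 6-phosphate is drawn off to the precursors of chitin and mannan. The steps up to fructose 6-phosphate thus lie before these wall precursors, whereas phosphofructokinase, aldolase and triosephosphate isomerase lie beyond that branch. On glucose Hxk2 is the predominant hexokinase and also takes part in glucose repression, while HXK1 and GLK1 are known as genes repressed by glucose.

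The values are log2 ratios with 1 value per feature and array, and they give no transcript level. The medians of the 2738 features were −0.27 on array 1 and −0.18 on array 2, so a gene slightly below 0 can still lie above the middle of the table. Array 1 was the wider one, with an SD across features of 0.96 against 0.57. The labels leave unsettled which way the ratios run. The columns correlated positively across features although the dyes were swapped (Pearson r = 0.48, across genes, which are not independent replicates), as columns turned to one orientation would. That bears on a shared orientation only. Treated over untreated is the likely one, by the convention of test over reference, and in the opposite one every sign below would turn. The values are therefore called positive and negative here, with no rise or fall read from them. Never-turned ratios carrying a gene-specific dye bias could correlate positively too, and the values under that reading are given further on. Of the markers of an a cell 4 of 6 had a value on both arrays and of those of an alpha cell 1 of 4, and ratios within one strain cannot show whether the transcripts were there.

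All 8 genes exceeded the all-feature median on both arrays, where 29.3% of the 2738 features did. The control feature 3XSSC, left out of the 2738, exceeded both medians too, with 0.48 on array 1 and 0.51 on array 2. GLK1 and TPI1 lay below 3XSSC on both arrays, and HXK1, PFK1 and FBA1 did so on array 2. The other control feature, Arabidopsis, had −2.52 on array 1 and 0.53 on array 2. PGI1 and HXK2 had the widest mean ratios, 7.50-fold and 5.79-fold on the linear scale, followed by PFK2 at 2.57-fold. HXK1, PFK1 and FBA1 had mean ratios between 1.504-fold and 1.68-fold, and GLK1 and TPI1 were within 1.04-fold of no difference. The order was therefore not that of the pathway: the isomerase and one subunit of phosphofructokinase were past 2-fold on each array, whereas the last enzyme of the series, TPI1, stood near 0. A rule of size, which asks for a 2-fold mean and for 1.5-fold or more of that sign on array 1 and on array 2 alike, took 3 of the 8 (PGI1, HXK2 and PFK2), all positive, against 4.13% of all features that met it with a positive mean and 2.81% with a negative one. Centring each array left 3 of the 8 past the rule and moved the split over all features from 113 positive and 77 negative to 162 and 35. Limma (mean ratio against 0, two-sided, Benjamini-Hochberg adjustment over the 2738 features) called 0 of the 8 at an adjusted p under 0.05, and 0% of all features. At an unadjusted p under 0.05 limma gave the same 3 of the 8, against 6.28% of features with a positive mean and 7.27% with a negative one. Centring turned that balance over all features, from 172 positive and 199 negative to 224 and 79, and gave 4 of the 8, with PFK1 added.

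**Figure D1:**
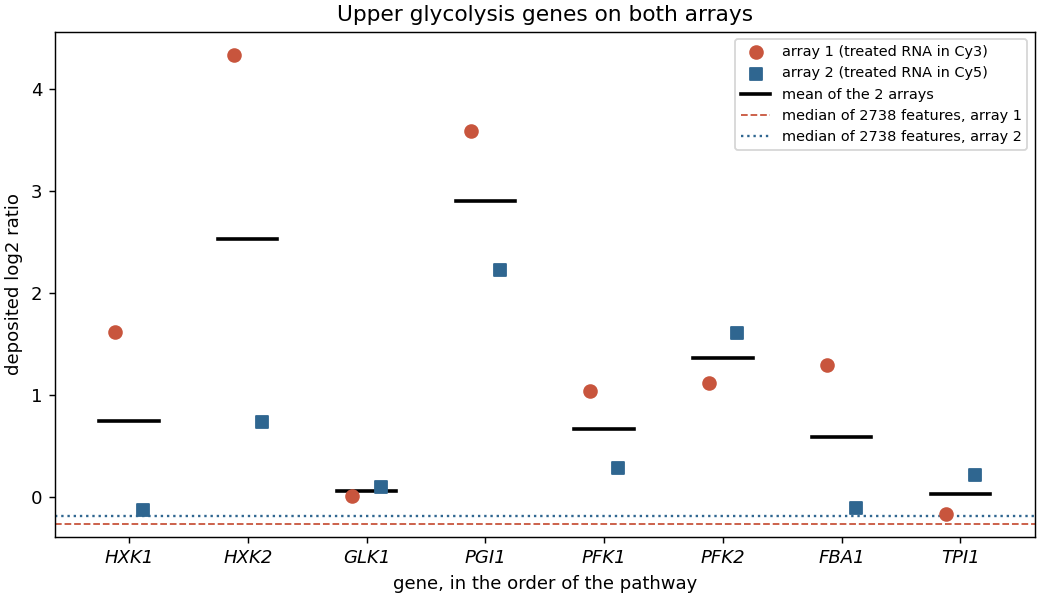
Deposited log2 ratio (vertical axis) of each of the 8 genes in pathway order (horizontal axis) on array 1 (circles) and array 2 (squares). Black bars are means of the 2 arrays and the dashed and dotted lines are the medians of all 2738 features. PGI1 and PFK2 are past 1 on both arrays, while HXK2 reaches 4.33 on array 1 and 0.74 on array 2.

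Among the 3 genes of glucose phosphorylation, HXK2 had a log2 ratio of 4.33 on array 1 and 0.74 on array 2, with a mean of 2.53 ± 2.54 (SD, n = 2). Array 1 thus gave a 20.2-fold ratio and array 2 a 1.66-fold ratio, so the sign was shared and the size was not. Only 2 of the 2738 features stood above HXK2 on array 1, where its rank was 3, while its rank on array 2 was 170. The 95% interval of the mean from limma ran from 0.18 to 4.89, and the adjusted p was 0.363.

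HXK1, the hexokinase closest to Hxk2, had 1.62 on array 1 and −0.13 on array 2, with a mean of 0.74 ± 1.23 (SD, n = 2) and a limma adjusted p of 0.496. The positive mean came from array 1, and on array 2 the gene lay 0.055 above the median of all features. HXK1 and HXK2 are paralogues of similar sequence, and cross-hybridisation between them on these arrays was not tested. GLK1, the glucokinase, had 0.0040 on array 1 and 0.10 on array 2, and its mean was 0.052 ± 0.068 (SD, n = 2), with a limma interval from −0.62 to 0.72. It was the gene with the least spread between arrays of the 8, and both values lay close to 0. EMI2, a relative of GLK1 outside the list, had 0.91 and 0.24, and YLR446W, a hexokinase-like gene, had no value on either array.

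Within each array, HXK2 exceeded HXK1 by 2.72 and 0.86 on the log2 scale, and GLK1 by 4.33 and 0.63. HXK1 exceeded GLK1 by 1.61 on array 1 and lay 0.23 below it on array 2. The difference between HXK2 and each of its isoenzymes thus had the same sign on both arrays, and that between HXK1 and GLK1 did not. For these and the other pairs, 11 in all, an exact two-sided sign-flip permutation test over 2 arrays cannot go below p = 0.5. That value was reached wherever the signs matched (Benjamini-Hochberg adjusted p = 0.611 over the 11 pairs), so none of the differences can pass that test.

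PGI1, the single gene for phosphoglucose isomerase, had 3.59 on array 1 and 2.22 on array 2. Its mean was 2.91 ± 0.97 (SD, n = 2), with a limma interval from 1.82 to 4.00 and an adjusted p of 0.135, the smallest of the 8. The ratio was 12.1-fold on array 1 and 4.66-fold on array 2, ranks 9 and 24 of 2738, and rank 8 in the mean. When each array is measured in its own median absolute deviation, the typical distance of a feature from the median, PGI1 lay 10.4 deviations above the median on array 1 and 9.94 on array 2. The larger log2 ratio on array 1 was thus of about the same size relative to that array's spread. HXK2 lay 12.4 and 3.80 deviations above the median, so for HXK2 the gap between arrays was not matched by the difference in spread.

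PGI1 exceeded HXK1, GLK1, PFK1, PFK2, FBA1 and TPI1 on both arrays. The narrowest of these differences was 0.61, against PFK2 on array 2, and the widest was 3.76, against TPI1 on array 1. Against FBA1 the difference was 2.30 on array 1 and 2.33 on array 2. Against HXK2 it was −0.74 on array 1 and 1.485 on array 2, so the order of these 2 genes differed between the arrays.

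**Figure D2:**
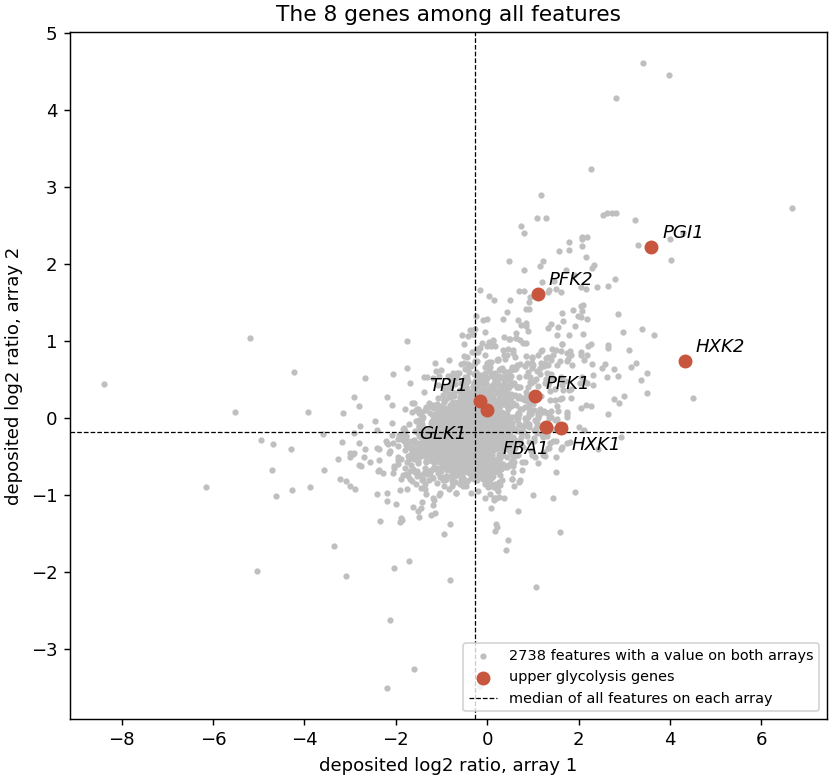
Log2 ratio on array 1 (horizontal axis) against array 2 (vertical axis) for all 2738 features (grey) and the 8 upper glycolysis genes (red, named); dashed lines are the medians of all features. All 8 genes lie above and to the right of the medians, with PGI1 at 3.59 and 2.22 and HXK1 and FBA1 close to the median of array 2.

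Phosphofructokinase is a hetero-octamer whose alpha subunits are encoded by PFK1 and whose beta subunits are encoded by PFK2. PFK2 had 1.115 on array 1 and 1.61 on array 2, and its mean was 1.36 ± 0.35 (SD, n = 2), with a limma interval from 0.63 to 2.10 and an adjusted p of 0.231. PFK1 had 1.04 and 0.29, and its mean was 0.66 ± 0.53 (SD, n = 2), with an interval from −0.15 to 1.48 and an adjusted p of 0.407. The subunit genes were 0.075 apart on array 1 and 1.33 apart on array 2, with PFK2 above PFK1 each time. Both were positive on both arrays, and only PFK2 was past 2-fold on array 2.

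FBA1, the aldolase gene, had 1.29 on array 1 and −0.11 on array 2, with a mean of 0.59 ± 0.99 (SD, n = 2) and an adjusted p of 0.518 with limma. Its pair of values resembled that of HXK1, positive on array 1 and within 0.072 of the median of all features on array 2. TPI1, triosephosphate isomerase, had −0.17 on array 1 and 0.22 on array 2. The mean was 0.025 ± 0.27 (SD, n = 2), with a limma interval from −0.68 to 0.73, and the signs on the arrays as deposited differed. TPI1 lay 0.099 and 0.40 above the medians of all features, so centring makes it positive on both arrays, as it does HXK1 and FBA1.

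The median of the 8 genes stood 0.94 above that of all features in the mean of the arrays, at 1.47 on array 1 and 0.44 on array 2. On array 1 alone 6 of the 8 were at least 2-fold positive, against 8.04% of features, and on array 2 alone 2 of the 8 (PGI1 and PFK2), against 3.91%. Array 1 gave the higher ratio for 5 genes and array 2 for GLK1, PFK2 and TPI1. Across the 8 genes the arrays had a Pearson r of 0.52 and a Spearman rho of 0.26, given as a description of 8 genes that share the same arrays. Without HXK2 the Pearson r was 0.66. HXK2 had the widest gap between the arrays of the 8 genes: without array 1 its ratio was 0.74, and without array 2 it was 4.33.

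If the columns were left as Cy5 over Cy3 and not turned, treated over untreated is the difference of array 2 and array 1 divided by the number of arrays. Under that reading HXK2 gave −1.80, HXK1 −0.87, FBA1 −0.70, PGI1 −0.69 and PFK1 −0.38, whereas PFK2 gave 0.25, TPI1 0.19 and GLK1 0.048. The median of the 8 was then −0.59 relative to all features. None of the 8 met the rule of size (0 of 8), where 0.146% of all features met it with a positive mean and 0.256% with a negative one, so the count is near the background. HXK2 was the one gene of the list with an unadjusted limma p under 0.05, against 0.877% of features with a positive mean and 0.511% with a negative one, and its limma adjusted p was 1.00. In the opposite orientation all 8 signs would turn, and under the never-turned reading those of 5 of the 8 genes did. A dye effect would share its sign between the arrays under that reading, and its part in the values was not tested.

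**Figure D3:**
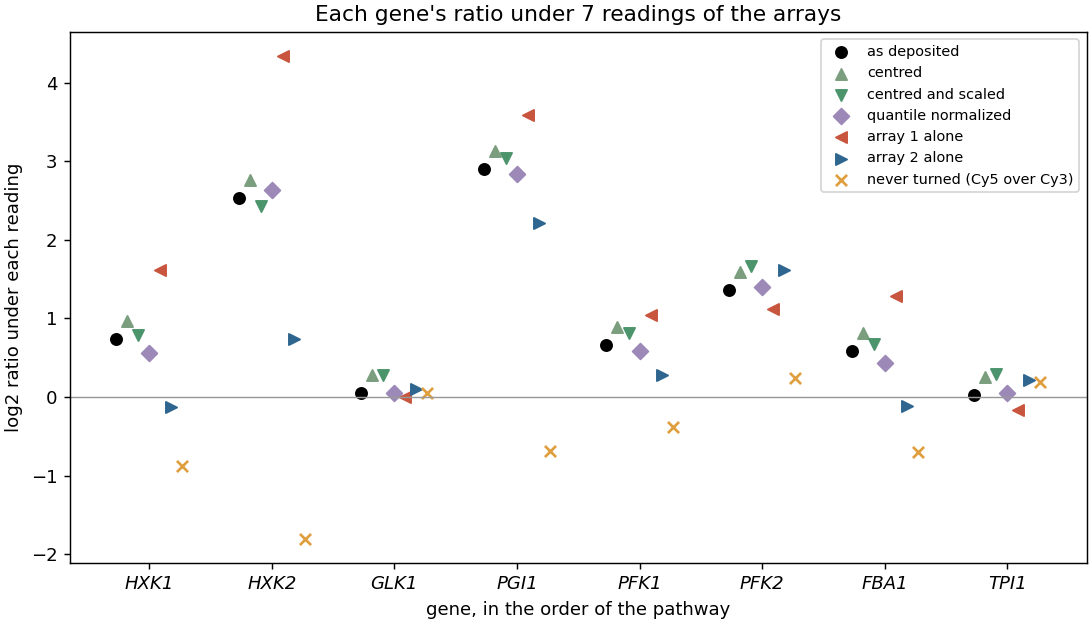
Log2 ratio of each gene (vertical axis) in pathway order (horizontal axis) under 7 readings: the mean as deposited, after centring, after centring and scaling, after quantile normalization, each array alone, and the ratios read as never turned. PGI1 stays between 2.22 and 3.59 in the readings with the deposited signs and is at −0.69 when read as never turned.

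The rest of the route and its branches were described from lists chosen with earlier results of these data known, with 0 members of any list called by limma over all features. In lower glycolysis, from glyceraldehyde 3-phosphate to pyruvate, all 8 measured genes of 11 exceeded the all-feature median on both arrays. The 8 upper genes did so too, against 29.3% of all features. Their median stood 0.64 above all features against 0.94, at 0.83 on array 1 and 0.39 on array 2. This difference between the upper and lower parts was not tested. ENO1, an enolase gene, was highest at 1.78 ± 1.23 (SD, n = 2). It was the single lower gene past the rule of size, against 4.13% of all features with a positive mean. PGK1, phosphoglycerate kinase, was lowest at 0.17 ± 0.057 (SD, n = 2). The upper genes GLK1 and TPI1 had means below that of PGK1, and so below each of the 8 measured lower genes.

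Ethanol fermentation stood further from the middle than the upper genes, with a median 1.90 above all features in 7 of 8 genes, 2.46 on array 1 and 1.51 on array 2. PDC1, PDC5, PDC6, ADH1, ADH2 and ADH3, genes of pyruvate decarboxylase and alcohol dehydrogenase, met the rule of size. Over all features 4.13% met it with a positive mean. ADH5 was lowest at 0.82 ± 0.25 (SD, n = 2). PDC6, at 3.35 ± 1.34 (SD, n = 2), was the one measured gene of glycolysis and fermentation with a mean above that of PGI1. The genes of each of these families are similar in sequence, and cross-hybridisation among them was not tested.

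**Figure D4:**
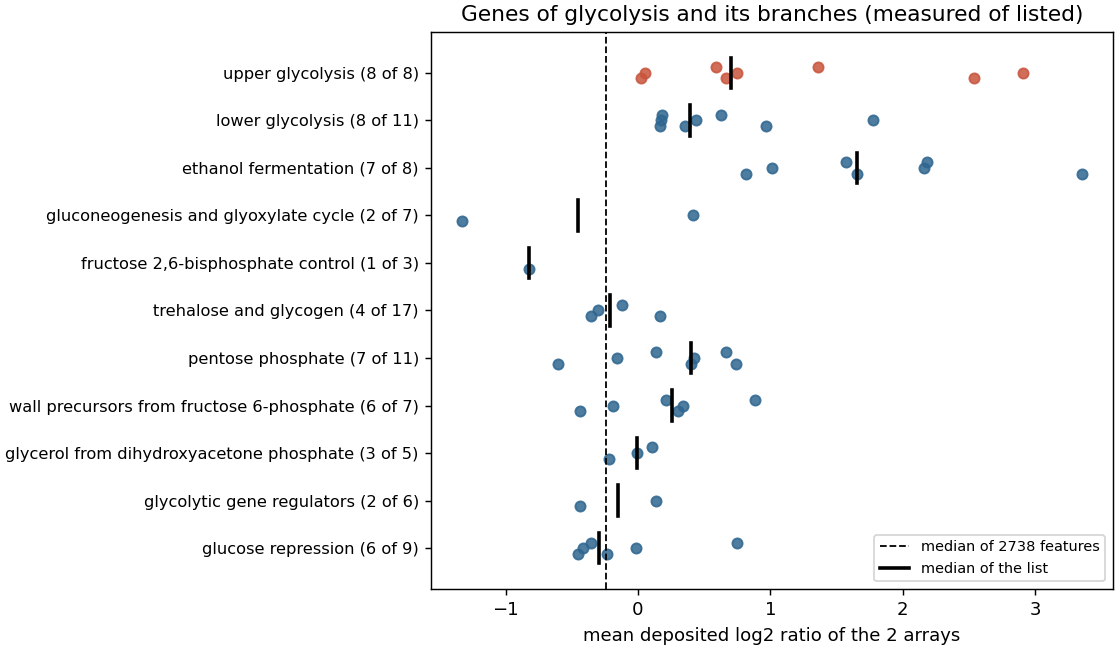
Mean log2 ratio of the 2 arrays (horizontal axis) for each measured gene of 11 lists of glycolysis, its branches and its regulators (rows, with measured of listed genes in brackets); black bars are list medians and the dashed line is the median of all 2738 features. Upper glycolysis (red) reaches from 0.025 to 2.91, and the highest gene of the branches at the hexose phosphates, PCM1, is at 0.88.

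The branches that leave at the hexose phosphates had no gene past the rule of size. Over all features 4.13% met it with a positive mean and 2.81% with a negative one, so this count is near the background. Of the pentose phosphate genes 7 of 11 were measured, with a median 0.64 above all features. Of the 7, 3 exceeded the all-feature median on both arrays, against 29.3% of all features, so the count is near the background. TAL1, transaldolase, was highest at 0.74 ± 0.92 (SD, n = 2) and RKI1, ribose 5-phosphate isomerase, lowest at −0.60 ± 0.28 (SD, n = 2). Of the genes that take fructose 6-phosphate towards chitin and mannan 6 of 7 were measured, with a median 0.50 above all features. PCM1, phosphoacetylglucosamine mutase on the way to chitin, was highest at 0.88 ± 0.13 (SD, n = 2), with 0.79 and 0.98 on the arrays, and had a limma adjusted p of 0.333. GNA1, the acetyltransferase before it, was lowest at −0.44 ± 0.095 (SD, n = 2), and GFA1, which opens that route from fructose 6-phosphate, had no value on either array. Consecutive enzymes of the chitin route thus stood on opposite sides of 0, with PCM1 positive and GNA1 negative on both arrays.

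Of the trehalose and glycogen genes only 4 of 17 were measured, with a median 0.031 above all features. TPS1, trehalose phosphate synthase, was highest at 0.17 ± 0.053 (SD, n = 2) and ATH1, acid trehalase, lowest at −0.35 ± 0.40 (SD, n = 2). Of the glycerol genes, which draw on dihydroxyacetone phosphate beside TPI1, 3 of 5 were measured, with a median 0.23 above all features. GPD1, glycerol 3-phosphate dehydrogenase, gave 0.10 ± 0.19 and GPP2, a glycerol phosphatase, −0.22 ± 0.47 (SD, n = 2).

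Genes that oppose or control phosphofructokinase were mostly without values. FBP1, fructose bisphosphatase, had none on either array. PFK26, which makes the activator fructose 2,6-bisphosphate, had −1.48 and −0.17, a mean of −0.83 ± 0.93 (SD, n = 2). Its sign was opposite to that of PFK1 and PFK2, but on array 2 it lay 0.015 above the median of all features. FBP26, whose product removes that activator, had a value on array 2 only, −0.60. Of the list of gluconeogenesis and the glyoxylate cycle 2 of 7 were measured, the pyruvate carboxylase genes PYC1 and PYC2, at −1.33 ± 2.26 and 0.42 ± 0.16 (SD, n = 2), with PYC1 at −2.92 on array 1 and 0.27 on array 2.

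Of the regulators of glycolytic genes, GCR1, GCR2 and RAP1 had no value on either array. TYE7, a transcription factor of glycolytic genes, gave 0.13 ± 0.49 and REB1, a general regulatory factor, −0.43 ± 0.26 (SD, n = 2). In the glucose repression list 6 of 9 were measured, with a median −0.053 relative to all features. MIG1, the repressor that works with Hxk2, had −0.48 and −0.35, so HXK2 and MIG1 had opposite signs on both arrays. TUP1, a corepressor, was highest at 0.74 ± 1.499 (SD, n = 2) and GLC7, a protein phosphatase, lowest at −0.46 ± 0.13 (SD, n = 2).

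Outside these lists, the features with a gene name nearest to PGI1 in the plane of both arrays were ASN2, an asparagine synthetase gene, at a distance of 0.29 on the log2 scale, ILV5, of branched-chain amino acid synthesis, at 0.43, and PMA1, encoding the main plasma membrane proton ATPase, at 0.45. Nearest to the centre of the 8 genes, the median on each array, were GDH1, glutamate dehydrogenase, at 0.049, TIF6, of ribosome biogenesis, at 0.10, and YRO2, a membrane protein gene, at 0.15. These distances rest on 2 values a gene and say nothing of a common control.

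The neighbours of the 8 genes on the chromosome, looked up after the values had been seen, gave 7 values on both arrays among 16 neighbours, and 3 of the 8 genes had no measured neighbour. Of the 7, 2 exceeded the all-feature median on both arrays, against 29.3% of all features, so the count is near the background. YCL042W, next to GLK1 among the protein-coding genes of the gene table, had 1.65 and 1.36 and met the rule of size (limma adjusted p = 0.187). GLK1 itself stood at 0.0040 and 0.10. YCL041C, whose systematic name falls between theirs and which was not counted as a neighbour, had 1.07 on array 1 and −0.043 on array 2. MSI1, next to PGI1, had −0.26 and 0.29, far from the 3.59 and 2.22 of PGI1, and YFR054C, next to HXK1, had −1.57 and −0.71, opposite in sign to HXK1 on array 1.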

How the data were processed

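Transcript ratios were measured on 2 two-channel arrays of Cy5 and Cy3 cDNA, per the labels' protocols. The deposited table holds 1 log2 ratio per feature and array; the scale was read from the values, since raising 2 to any of the 2832 values on array 1 or the 3440 on array 2 gives a number with 4 decimals (relative tolerance 1e-07). What scanner, channel order, background correction and normalization were used, and why cells are empty, is not given in the sources used here. Without intensities, signal over background is unknown. The number of arrays limits the precision.

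Ratios were used as deposited, without centring, after leaving out 2 control features. Gene names came from a RefSeq gene table of assembly R64, matching 5654 of 6207 features; the array's build is not named, so coordinates are left out. Limma 3.58.1 (lmFit and eBayes, R 4.3.3) compared the mean with 0, with Benjamini-Hochberg adjustment at 0.05. A simulation with arrays of equal spread required only that the fitted means recover the added differences. It is therefore no check of the p-values given here. Genes named were the 8 members and the 3 features nearest to PGI1 and to the centre. From each list the highest, the lowest and those past the rule of size were named. Others (YLR446W, GFA1, FBP1, FBP26, MIG1, GCR1, GCR2, RAP1, YCL041C and the chromosomal neighbours) were chosen after their values were seen. The members and lists were chosen with earlier results of these data known. Alternatives were centring, scaling, quantile normalization, turned signs, other fold limits and thresholds, robust moderation, filters on features and each array left out. Plots came from matplotlib 3.10.9 under Python 3.11.15.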

Additional observations from a re-analysis of the deposited data

How the results depend on the processing

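Centring, scaling, quantile normalization and the use of features with a value on either array changed the sign of no mean among the 8 genes and left 3 of them past the rule of size. Over all features, centring moved the split of 113 positive and 77 negative features past the rule of size to 162 and 35, a positive share of 82.2% against 59.5%, and scaling moved it to 167 and 40 (80.7%), while quantile normalization gave 121 and 101 (54.5%). At an unadjusted limma p under 0.05 the split of 172 positive and 199 negative became 224 and 79 centred, 258 and 115 scaled, and 187 and 296 quantile normalized. Centring also turned single array values, HXK1 and FBA1 on array 2 to 0.055 and 0.072 and TPI1 on array 1 to 0.099. Without each array in turn, 2 to 6 of the 8 genes were past 2-fold, and the ratio ran from −0.13 to 1.62 for HXK1, from −0.11 to 1.29 for FBA1, from −0.17 to 0.22 for TPI1, from −0.23 to 1.61 for HXK1 minus GLK1 and from −0.74 to 1.485 for PGI1 minus HXK2. One array leaves no residual degrees of freedom, so limma could not be fitted there. With 3-fold and 2-fold limits 1 of the 8 met the rule of size, and the share of all features at those limits was not counted. Leaving out features whose arrays differ by more than 2 removes HXK2 and lowers the spread by its construction. After that filter limma called 62 features and 1 of the 8, PGI1 (2.91, adjusted p = 0.0109). The number of features left by the filter was not counted, so no share is given. Over the other alternatives the limma adjusted p of the 8 genes ran from 0.0616 upwards. With the ratios read as never turned, limma called 3 features and 0 of the 8, 0 met the rule of size, as 4 positive and 7 negative of all features did, and 1 had an unadjusted p under 0.05, as 24 positive and 14 negative of all features did. In that reading the relative median was −0.59, and the ratios were −1.80 for HXK2, −0.87 for HXK1, −0.70 for FBA1, −0.69 for PGI1 and −0.38 for PFK1. The differences that turned sign were 0.93 for HXK1 minus HXK2, −1.85 for HXK2 minus GLK1, −0.92 for HXK1 minus GLK1, and, for PGI1 minus another gene, −0.73 (GLK1), −0.31 (PFK1), −0.94 (PFK2) and −0.88 (TPI1). The cause was not tested. Each ratio already compares treated and untreated RNA on the same array, so the test of the mean ratio keeps that pairing. No further paired analysis was possible because the arrays form 1 group.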
